A study of Danio rerio with 8 samples.

Results

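Mitochondria import nearly all of their proteins from the cytosol, and the genes described here encode that import machinery and the proteins that shape the inner membrane. They were taken as the rows of the count table whose symbol begins with timm, tomm, chchd, micos, immt, samm50, hspd1 or hspe1, in lower case. This gave 32 of the 21234 genes in the table. By role they are 11 genes of the outer membrane (tomm34 counted there by its name). Another 5 are of the TIM23 translocase and its motor, and 4 are small chaperones of the intermembrane space. There are also 4 genes of MICOS, 5 for other CHCHD proteins and 2 of the matrix chaperonin. The last, timmdc1, encodes an assembly factor of respiratory complex I.

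Gene expression was measured by sequencing of polyadenylated RNA in dissociated ventricle cells of adult zebrafish, labelled cardiomyocytes. The 4 control libraries came from fish of genotype cmlc2:dsred, a reporter of red fluorescence under a cardiomyocyte promoter, and their second genotype is given as control. The 4 other libraries came from cmlc2:dsred fish overexpressing Hmga1a, a chromatin protein with AT-hooks, and both groups were taken 14 days post tamoxifen. The labels' protocols say that tamoxifen induces the overexpression. They name neither the promoter that drives it nor the number of fish behind a library, so p-values cover only the spread between libraries, which may be technical.

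The deposited tables give corrected transcript counts, which totalled between 49598 (control 2) and 352807 in controls and between 302157 and 572295 with overexpression. Control 2 stands apart by its depth: 3 counts, the limit that a count of 0 allows, correspond there to 85.4 CPM (counts scaled to equal library size by TMM), against 4.65 to 15.1 CPM in the other 7 libraries. These limits cover counting error only. The hmga1a transcript was at 120.1, 28.5, 70.5 and 55.4 CPM in the controls and at 76.1, 124, 121 and 122 CPM in the overexpression libraries. The groups overlapped, and the gene did not pass edgeR's test (log2 fold change 0.47 ± 0.30 (SE), adjusted p = 0.177). With control 1 left out it passed (0.85, adjusted p = 0.0444), as it did with library totals alone (0.82, adjusted p = 0.0397). It was 0.24 without control 4, and -0.82 (adjusted p = 0.0712) under a scaling on contractile genes. The reporter dsRED rose, from 513.98 to 591.98 CPM in controls to between 2136 and 3539 CPM (2.36 ± 0.17, adjusted p = 1.9e-12, edgeR), and so did an eGFP entry, from 53.2 to 228 CPM to between 499 and 638 CPM (2.60 ± 0.26, adjusted p = 1.2e-09). The labels do not say what eGFP marks. Mitochondrial RNA made up 44.9% to 67.7% of counts in controls and 28.1% to 35.1% with overexpression. Of the marker lists, 6 of 8 cardiomyocyte genes were measured and summed to 7779 to 10342 CPM in controls and 17178 to 22575 CPM with overexpression. Among them myl7 was near 0 in both groups (0 to 3.46 CPM in controls, 0 with overexpression) and was not tested. Whether this reflects the cells or how reads were assigned to the gene is unknown here. Of the 5 cardiomyocyte genes tested, 4 rose, and the titin gene ttn.2 fell (log2 fold change -2.01 ± 0.15, adjusted p = 5.6e-12, edgeR). Leukocyte markers (7 of 8 measured, coro1a at 0 in all libraries) summed to 3134 to 5948 CPM and 1308 to 1812 CPM. Endothelial markers (4 of 8 measured, cdh5 at 0) summed to 136 to 223.8 CPM and 42.4 to 96.5 CPM, fibroblast markers (4 of 8) to 41.5 to 159.8 CPM and 2.23 to 18.7 CPM, and epicardial markers (5 of 6, tbx18 at 0) to 729.7 to 959.7 CPM and 330.3 to 370.3 CPM. Markers of smooth muscle and pericytes (5 of 5, notch3 at 0) went the other way, from 424.1 to 1116 CPM in controls to between 1296 and 1772 CPM, and the 4 measured erythrocyte genes were at 0 in all libraries. The part that these shifts, and the mitochondrial share, have in the results on import genes was not tested.

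A precursor protein meets the TOM complex of the outer membrane, where receptors hand it to a pore. From there it is passed to the TIM23 complex, which leads it into the inner membrane or the matrix, to small chaperones of the intermembrane space that escort membrane proteins, or to SAM, which inserts barrel-shaped proteins into the outer membrane. MICOS holds the inner membrane in folds called cristae, and a chaperonin folds imported proteins in the matrix. Heart muscle cells are packed with mitochondria, and their cristae are dense.

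Most of the import and cristae genes with enough counts were higher with Hmga1a overexpression. Of 19 genes that passed the filter on low counts, 14 rose and 1, tomm34, fell at an adjusted p under 0.05 in edgeR's quasi-likelihood test, and 4 (tomm22, tomm40, chchd2 and hspd1) did not pass. Of all 2501 genes tested, 30.4% were called higher and 29.2% lower, 59.6% in either direction. The median log2 fold change was 1.03 over the 19 genes and 0.01 over all genes tested. Of the 19 genes 10 were called higher and rose at least 2-fold, beside 22% of all genes tested. Among genes called higher, these were 10 of the 14 and, over all genes tested, 551 of 760. Since the filter can keep a gene through the group where it is high, these counts describe the genes that passed and not all 32. In each control tomm7, tomm6, timm13, chchd1 and chchd6a held fewer than 10 counts, the filter's minimum. These genes passed through the overexpression libraries, so their rises and their part in the counts are not independent of the filter. The filter scales its minimum to library depth and asks for it in at least 4 libraries. On the controls alone samm50l (5 counts in control 3), tomm70a and tomm40 (each at 0 in control 2) would not have passed either. So the rises of samm50l and tomm70a are not independent of the filter. In 11 of the 19 genes each overexpression library lay above each control, beside 25.6% of all genes tested, and in 1 each lay below, beside 17.7%. Without control 2 these counts were 14 and 1, beside 31.1% and 29.1% of all genes.

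The rise is relative to the average gene, and it did not hold relative to a set of contractile genes. That set came from an earlier analysis of these data, so this scaling is no independent test. It does not stand for every contractile gene, as ttn.2 fell. When libraries were scaled on contractile genes, 0 of the 19 genes were called higher and 4 (tomm34, tomm40, chchd2 and hspd1) were called lower, beside 2.12% of all genes called higher and 60.6% called lower. The median over the 19 genes was then -0.23, and that over all genes tested was -1.25. With library totals alone 17 of the 19 genes rose and 1 fell, beside 39.1% and 19.2% of all genes tested, and the median over all genes was 0.39. In bulk samples, fewer cells of a type and less RNA per cell cannot be told apart.

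**Figure D1:**
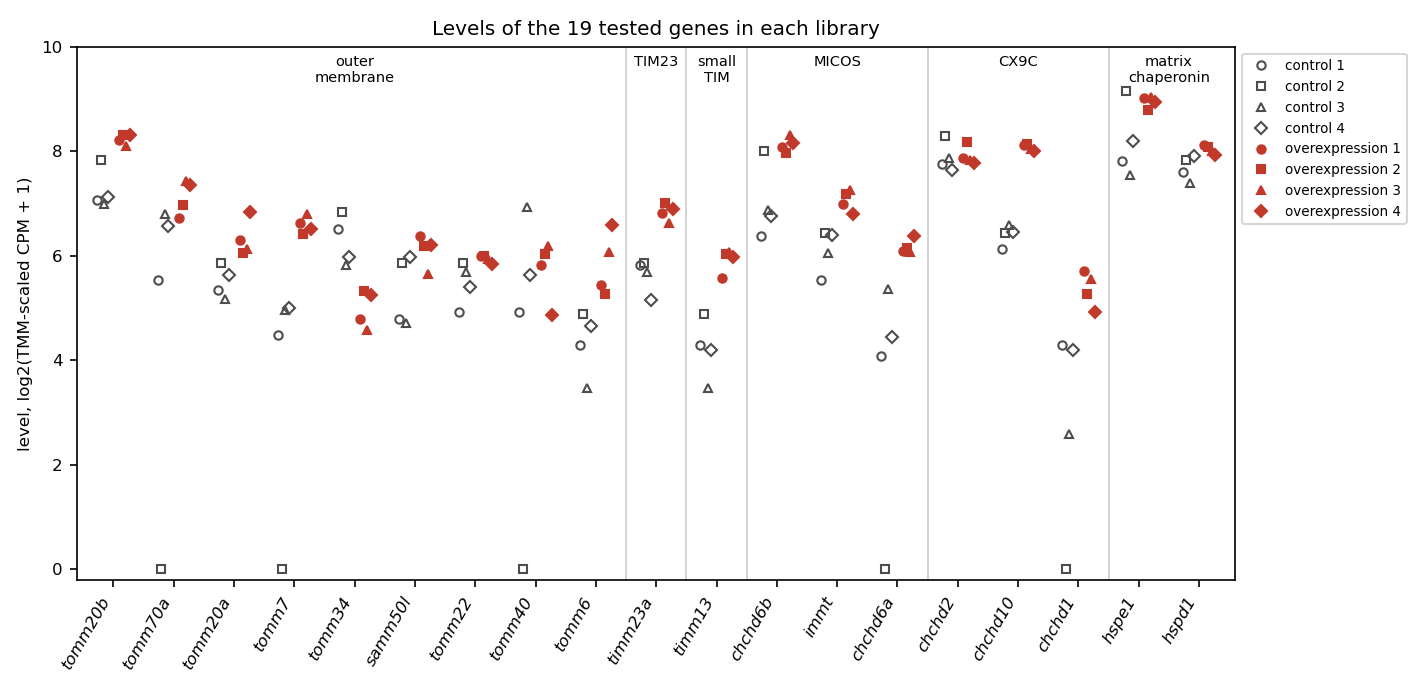
Levels of the 19 tested genes, as log2 of TMM-scaled CPM plus 1, in each of the 4 control (open) and 4 overexpression (filled) libraries, grouped by role. Filled points lie above all open points in 11 genes and below them in tomm34; the 5 open points at 0 are control 2, where 3 counts correspond to 85.4 CPM.

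At the outer membrane, the presequence receptor genes tomm20b and tomm20a rose, as did the small TOM subunit genes tomm7 and tomm6. Of 9 tested genes grouped there by name, 6 rose, 1 (tomm34, described below as mainly cytosolic in mammals) fell and 2 did not pass. Of all genes tested 30.4% were called higher and 29.2% lower. The log2 fold changes of the 9 genes had a median of 0.91. Among those that rose, tomm7 and tomm6 held under 10 counts in each control and passed the filter through the overexpression libraries. As given above, samm50l and tomm70a would not have passed it on the controls alone either. The level of tomm20b was 134, 228, 126 and 139 CPM in the controls, in the order of their numbers, and 297, 316, 273 and 318 CPM in the overexpression libraries. The groups did not overlap, and control 2 was the highest control. The log2 fold change was 1.11 ± 0.21 (adjusted p = 3.8e-05, edgeR). Its duplicate tomm20a, at 39.9, 57.0, 35.2 and 48.5 CPM in controls and 78.3, 65.8, 69.2 and 114 CPM with overexpression, was again higher in each overexpression library. It rose by 0.96 ± 0.33 (adjusted p = 0.0128, edgeR), but did not pass without control 1 (0.84, adjusted p = 0.0744) or without overexpression 4 (0.78, 0.0654). Whether reads shared by duplicates were split is unknown here. The gene tomm7, whose product helps to hold the TOM complex together, showed the largest rise of the 19. It was at 21.3, 0, 30.2 and 31.1 CPM in controls and at 98.6, 84.7, 110 and 90.6 CPM with overexpression. The groups were far apart, with no count in control 2 (log2 fold change 1.88 ± 0.35, adjusted p = 3.7e-05, edgeR). The related tomm6 went from 20.3 ± 7.96 to 60.4 ± 26.5 CPM (SD, n = 4), also without overlap (1.66 ± 0.44, adjusted p = 0.00179, edgeR). Scaled on contractile genes, the log2 fold changes of tomm7 (0.61) and tomm6 (0.39) no longer passed, and those of tomm20b (-0.15) and tomm20a (-0.31) were below 0.

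The receptor gene tomm70a, which serves carrier proteins of the inner membrane, was less uniform. It was at 45.2, 0, 111 and 93.6 CPM in controls and at 105, 124, 171 and 163 CPM with overexpression. Overexpression 1 lay below control 3, so the groups overlapped. The log2 fold change was 0.91 ± 0.31 (adjusted p = 0.0128, edgeR), and without control 1 it was 0.55 (adjusted p = 0.160). The gene samm50l encodes a form of the barrel protein of SAM, which also contacts MICOS. It stood at 26.6, 57.0, 25.2 and 62.3 CPM in controls and at 82.8, 72.1, 49.0 and 73.3 CPM with overexpression. Overexpression 3 lay below controls 2 and 4. Its log2 fold change of 0.82 ± 0.36 passed narrowly (adjusted p = 0.0473, edgeR). It lost that call in 11 of 17 alternatives, among them those without control 1 (0.50, adjusted p = 0.300), control 3 (0.65, 0.148) and overexpression 1, 2 or 4 (0.79, 0.85 and 0.84). DESeq2 gave 0.82 with an adjusted p of 0.0869.

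The pore gene and the central receptor gene did not pass the test. The pore gene tomm40 was at 29.2, 0, 121 and 48.5 CPM in controls and at 55.9, 64.2, 72.1 and 28.0 CPM with overexpression, so the controls spanned more than the overexpression libraries. Its log2 fold change was -0.08 ± 0.42 (adjusted p = 0.887, edgeR), and 0.59 without control 3. The receptor gene tomm22 was at 29.2, 57.0, 50.4 and 41.5 CPM in controls and at 62.6, 62.7, 60.5 and 56.1 CPM with overexpression. Overexpression 4 lay just below control 2, where the level rests on 2 counts, and without control 2 the groups did not overlap. The log2 fold change of tomm22 was 0.59 ± 0.34 (adjusted p = 0.136, edgeR). With library totals alone it was 0.97 (adjusted p = 0.0165).

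A single gene fell, tomm34. Despite its name, its product is known in mammals mainly as a cytosolic co-chaperone that binds heat shock proteins. It was at 90.6, 114, 55.4 and 62.3 CPM in controls and at 26.8, 39.1, 23.0 and 37.3 CPM with overexpression. Every overexpression library lay below every control. The log2 fold change was -1.18 ± 0.34 (adjusted p = 0.00369, edgeR), between -1.32 and -1.03 without any single library, and it did not pass with no filter on low counts (-0.95, adjusted p = 0.0856). As given above, the summed leukocyte, endothelial, fibroblast and epicardial markers were lower in the overexpression libraries. Those of cardiomyocytes and of smooth muscle and pericytes were higher. Whether these shifts bear on tomm34 was not tested.

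**Figure D2:**
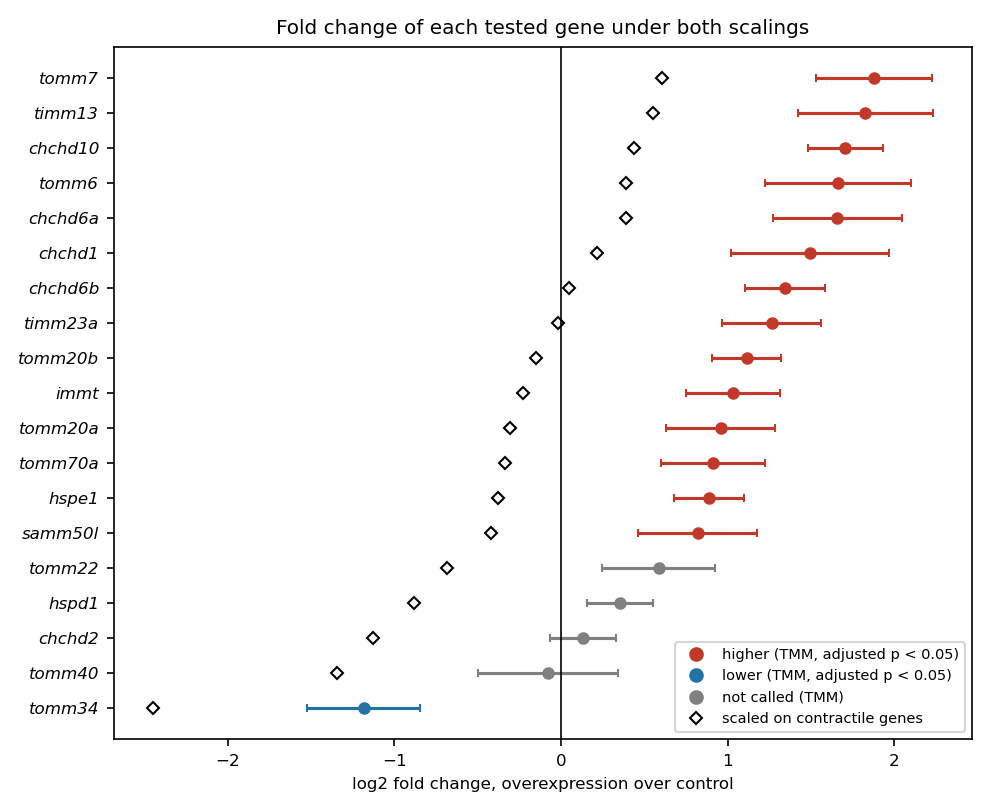
Log2 fold change of each tested gene, overexpression over control, with its SE under TMM scaling (circles, coloured by call) and under scaling on contractile genes (diamonds, no error shown). Of the 19 circles 14 are called higher, and each diamond lies to the left of its circle.

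In the inner membrane, timm23a, which encodes the channel of the TIM23 complex, rose. It was at 55.9, 57.0, 50.4 and 34.6 CPM in controls and at 112, 128, 98.2 and 119 CPM with overexpression, with no overlap. The log2 fold change was 1.26 ± 0.30 (adjusted p = 0.000573, edgeR), and -0.02 when scaled on contractile genes. Its duplicate timm23b had no count in any library. Among the other genes of this complex, timm44, which tethers the import motor, held 12 counts over the 4 controls and 63.1 over the 4 overexpression libraries. The presequence receptor gene timm50 held 5 and 32 counts, and timm17b, a partner of the channel, 3 and 24. All counts outside the mitochondrial genome were 2.58 times as many on average in the overexpression libraries. These 3 genes were below the filter. With a filter on the mean over all libraries in its place, timm44 passed as higher (1.32, adjusted p = 0.0417, edgeR) and timm50 did not (1.58, adjusted p = 0.107), and with no filter timm44, timm50 and timm17b did not pass (adjusted p = 0.111, 0.196 and 0.166).

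Small TIM chaperones carry unfolded membrane proteins across the intermembrane space. The one tested, timm13, was at 18.6, 28.5, 10.1 and 17.3 CPM in controls and at 46.9, 64.2, 66.3 and 62.4 CPM with overexpression. All overexpression libraries were above all controls, and the log2 fold change was 1.83 ± 0.41 (adjusted p = 0.000325, edgeR). Without any single library it stayed between 1.66 and 1.98, and scaled on contractile genes it was 0.55 (adjusted p = 0.288). The related timm9 held 3 counts in the controls and 41.1 with overexpression, below the filter. With no filter it passed as higher (log2 fold change 2.60, adjusted p = 0.0192, edgeR). Its groups overlapped, as overexpression 3 (8.63 CPM) lay below control 3 (10.1 CPM). No count was recorded for timm8a and timm8b in any of the 8 libraries, and the same holds for tomm5 and chchd4a. In overexpression 4, the deepest library, that allows up to 4.65 CPM.

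Of the 32 genes 4 encode MICOS proteins, and the 3 of them that were tested rose, beside 30.4% of all genes tested. One of these, chchd6a, held under 10 counts in each control and passed the filter through the overexpression libraries. The gene immt encodes its core membrane-bending subunit, and it was at 45.2, 85.5, 65.5 and 83.2 CPM in controls and at 126, 145, 153 and 111 CPM with overexpression. The groups were apart, and the log2 fold change was 1.03 ± 0.28 (adjusted p = 0.00242, edgeR). The duplicates chchd6a and chchd6b encode a peripheral subunit that binds the core. The level of chchd6b was 82.6, 257, 116 and 108 CPM in controls and 271, 251, 318 and 284 CPM with overexpression. Control 2, with 9.01 counts of this gene, was the only control to reach the overexpression libraries, and the log2 fold change was 1.34 ± 0.24 (adjusted p = 1.8e-05, edgeR). The other copy, chchd6a, was at 15.9, 0, 40.3 and 20.8 CPM in controls and at 67.1, 70.5, 66.3 and 82.8 CPM with overexpression. It was higher in each overexpression library (1.66 ± 0.39, adjusted p = 0.00057, edgeR). All 3 kept their call without any single library, and none passed when scaled on contractile genes (immt -0.23, chchd6b 0.05, chchd6a 0.39). The remaining gene, chchd3b, held 1 count in all 8 libraries.

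Other CHCHD proteins carry paired cysteines, and many of them, though not all, are trapped in the intermembrane space by disulfide formation. Among their genes the close relatives chchd10 and chchd2 parted. Both are small proteins linked in humans to inherited neurodegeneration. The level of chchd10 was 69.3, 85.5, 95.8 and 86.7 CPM in controls and 276, 280, 262 and 256 CPM with overexpression. These are narrow ranges far apart, and the log2 fold change was 1.70 ± 0.23 (adjusted p = 1.9e-07, edgeR), the smallest adjusted p of the 19. By contrast chchd2 was at 215, 314, 233 and 198 CPM in controls and at 235, 290, 229 and 218 CPM with overexpression, within the same range. Its log2 fold change was 0.13 ± 0.20 (adjusted p = 0.587, edgeR). The gene chchd1, whose product belongs to the small subunit of the mitochondrial ribosome, was at 18.6, 0, 5.03 and 17.3 CPM in controls and at 51.4, 37.5, 46.1 and 29.5 CPM with overexpression. It rose without overlap (1.49 ± 0.48, adjusted p = 0.00806, edgeR), on 13 counts in the controls together. Scaled on contractile genes, chchd10 (0.44) and chchd1 (0.22) did not pass and chchd2 was called lower (-1.13). The oxidoreductase gene chchd4b, whose product forms those disulfides, held 16 counts in controls and 34 with overexpression and did not pass with no filter (0.21, adjusted p = 0.819, edgeR).

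The matrix chaperonin consists of a barrel, encoded by hspd1, and its lid, encoded by hspe1, and these genes are neighbours in the RefSeq gene table (assembly GRCz12tu). The lid gene hspe1 was at 225, 571, 187 and 293 CPM in controls and at 518, 442, 523 and 493 CPM with overexpression. Control 2 was above all overexpression libraries and the other 3 controls were below them. The log2 fold change was 0.89 ± 0.21 (adjusted p = 0.000573, edgeR). The barrel gene hspd1 was at 193, 228, 167 and 241 CPM in controls and at 276, 271, 256 and 242 CPM with overexpression. Although the groups did not overlap, control 4 and overexpression 4 were almost level, and the log2 fold change of 0.35 ± 0.20 did not pass (adjusted p = 0.12, edgeR). It passed as higher with library totals alone (0.75, adjusted p = 0.00511) and with a filter on the mean over all libraries (0.58, 0.0235). When scaled on contractile genes hspd1 was called lower (-0.88, adjusted p = 0.0049).

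Ratios between 2 genes within a library do not depend on how libraries are scaled, and 4 pairs of related or partner genes had both members tested. With 0.5 added to each count, the ratio of chchd10 to chchd2 was 0.327, 0.304, 0.418 and 0.442 among controls, against 1.17, 0.966, 1.14 and 1.18 with overexpression. The groups were far apart, with a difference of 1.59 on the log2 scale. In an exact permutation test, two-sided, over 70 assignments of the libraries this gave p = 0.0286, the smallest value that 4 against 4 libraries can give, and an adjusted p of 0.114 over the 4 pairs. So the difference in ratio did not pass after adjustment, and a pair that alone reaches the smallest p cannot pass at this size. For hspe1 over hspd1 the ratio was 1.17, 2.42, 1.12 and 1.22 in controls and 1.87, 1.63, 2.04 and 2.04 with overexpression. The overexpression libraries lay above controls 1, 3 and 4 and below control 2 (difference 0.43, exact permutation p = 0.143, adjusted p = 0.286). Without control 2 the difference was 0.69 (exact permutation p = 0.0286, adjusted p = 0.0571). The ratio of the duplicates tomm20a and tomm20b was 0.293 to 0.357 in controls and 0.210 to 0.361 with overexpression, with a difference of -0.21 (exact permutation p = 0.314, adjusted p = 0.419). It was -0.36 without overexpression 4 (exact permutation p = 0.0286, adjusted p = 0.0571) and -0.10 without overexpression 2. For chchd6a over chchd6b the ratio was 0.0526 in control 2, which had no count of chchd6a, 0.206 to 0.361 in the other controls and 0.212 to 0.293 with overexpression (difference 0.61, exact permutation p = 0.457, adjusted p = 0.457). Without control 2 that difference was 0.05, and without control 3 it was 0.98 (exact permutation p = 0.0286, adjusted p = 0.0571). A p above the threshold does not show that the copies moved alike.

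**Figure D3:**
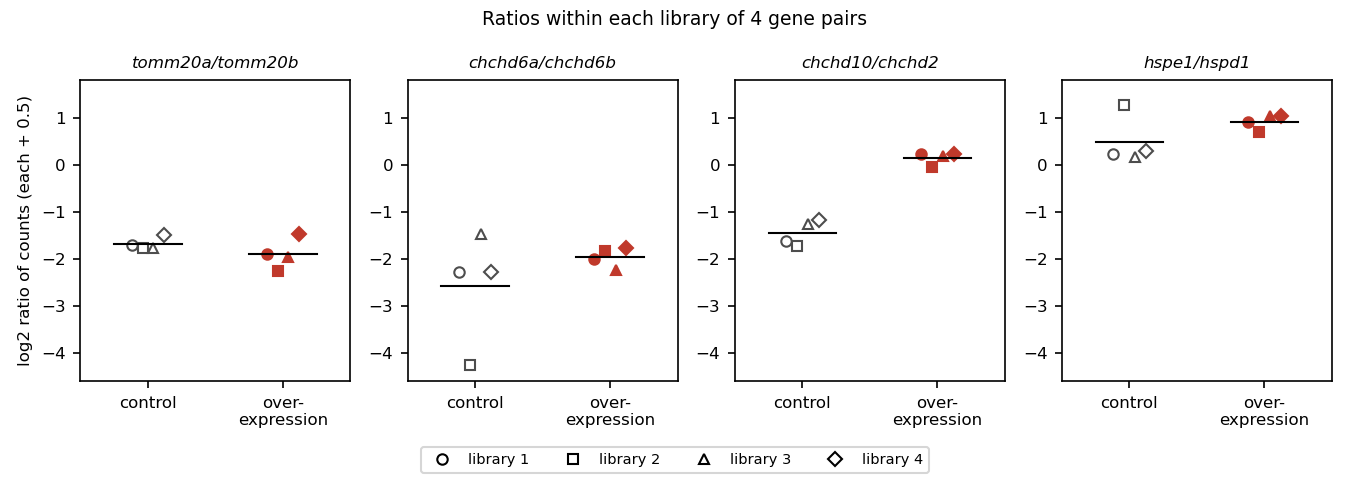
Log2 ratio of counts, each plus 0.5, within each library for 4 gene pairs; symbols number the libraries and lines mark group means. The ratio of chchd10 to chchd2 is the one whose groups do not overlap, and control 2 lies apart for chchd6a to chchd6b and for hspe1 to hspd1.

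All 32 genes can be followed without a filter by adding up their counts. They made up 0.279%, 0.493%, 0.313% and 0.313% of counts outside the mitochondrial genome among controls, against 0.507%, 0.519%, 0.501% and 0.516% with overexpression. Control 2 was close to the overexpression libraries and the other controls were well below. The means were 0.349% ± 0.0974 and 0.511% ± 0.00812 (SD, n = 4), and without control 2 the control mean was 0.301% ± 0.0197 (SD, n = 3). As a share of all counts the same sum was 0.136% to 0.159% in controls and 0.335% to 0.364% with overexpression. Per 100 counts of 76 nuclear genes of the respiratory complexes and ATP synthase, much of whose products are imported by this machinery, the 32 genes had 11.3, 10.5, 11.2 and 9.45 counts in controls. With overexpression they had 6.19, 6.63, 5.89 and 6.02. The means were 10.6 ± 0.844 and 6.18 ± 0.321, with no overlap. That measure was chosen after the data were seen and is given with no test. Between 16 (control 2) and 26 of the 32 genes had at least 1 count in a control library, and 26 or 27 had one in an overexpression library.

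**Figure D4:**
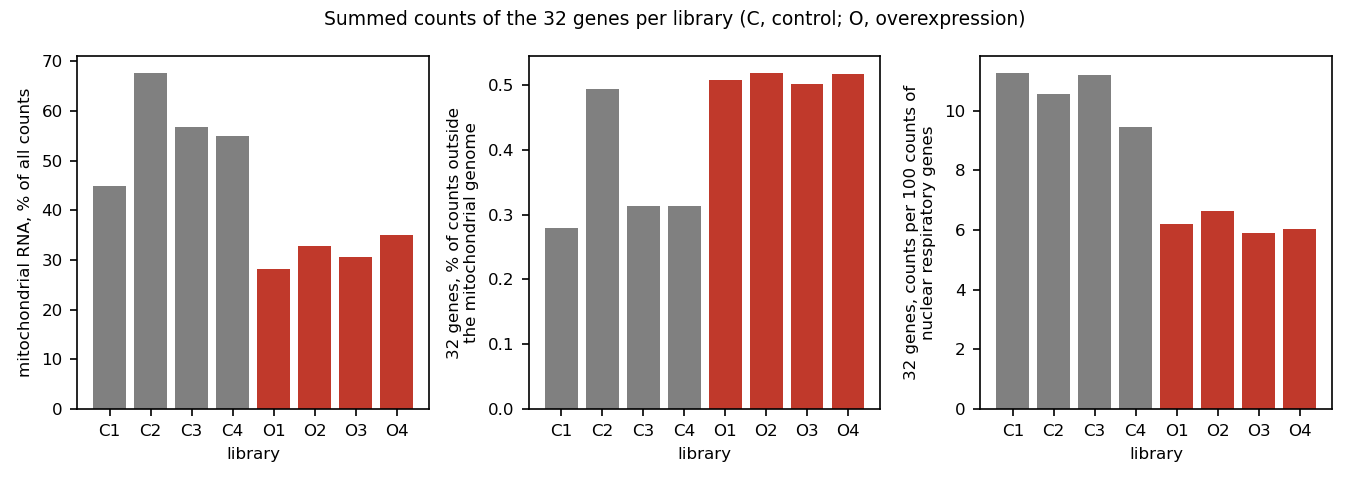
For each control (C) and overexpression (O) library, mitochondrial RNA as a percentage of all counts, the 32 genes as a percentage of counts outside the mitochondrial genome, and their counts per 100 counts of nuclear respiratory genes. The second panel shows control 2 at 0.493% beside 0.279% to 0.313% in the other controls, and the third shows all controls at 9.45 or more and all overexpression libraries at 6.63 or less.

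Other genes that act with this machinery were taken from a list of 48, of which 38 were in the table and 14 were tested. Of these 8 rose, 0 fell and 6 did not pass in edgeR's test at an adjusted p under 0.05. Of all 2501 genes tested, 30.4% were called higher and 29.2% lower. The median log2 fold change was 1.23 over the 14 and 0.01 over all genes tested. Here too the filter can keep a gene through the group where it is high, so these counts describe the 14 alone. The other 24 were not tested, 7 of them with no count in any library. At an unadjusted p under 0.05 in edgeR 0 of the 14 was lower as well, and DESeq2 also called 0 lower. Those that rose included the import and redox protein gene aifm1, at 63.9, 85.5, 40.3 and 83.2 CPM in controls and 212, 217, 212 and 178 CPM with overexpression (1.64 ± 0.26, adjusted p = 2.7e-06). They also included opa1, which encodes a fusion protein of the inner membrane that shapes cristae, at 42.6, 28.5, 55.4 and 72.8 CPM in controls and 105, 87.9, 133 and 152 CPM with overexpression (1.12 ± 0.31, adjusted p = 0.00241). Neither overlapped between groups. The MICOS gene apooa (1.49 ± 0.37) and the motor co-chaperone gene dnajc19 (1.43 ± 0.38) rose too. The prohibitin genes phb2a (2.00 ± 0.45) and phb2b (1.69 ± 0.42), the insertase gene oxa1l (1.88 ± 0.47) and the outer membrane gene mtx2 (1.34 ± 0.42) rose as well, mtx2 not without control 1 (0.86, adjusted p = 0.110). Of those that rose, oxa1l, phb2a and phb2b held under 10 counts in each control. For dnajc19, mtx2 and apooa only control 4 held more, and opa1 held 1 count in control 2. These genes passed the filter through the overexpression libraries, so their rises and the median are not independent of it. The motor chaperone gene hspa9, which pulls precursors into the matrix, was at 193, 143, 187 and 205 CPM in controls and at 189, 196, 238 and 194 CPM with overexpression. The groups overlapped (log2 fold change 0.09 ± 0.20, adjusted p = 0.716, edgeR). Its exchange factor gene grpel2 was at 171, 114, 131 and 93.6 CPM and at 108, 112, 116 and 98.5 CPM (-0.29 ± 0.25, adjusted p = 0.327). The others that did not pass were clpxa (0.67 ± 0.36), the protease gene yme1l1b (-0.12 ± 0.50), the peptidase gene pmpcb (0.62 ± 0.46) and letm1 (0.69 ± 0.33). Scaled on contractile genes, 0 of the 14 were called higher and 3 (hspa9, grpel2 and yme1l1b) were called lower. Of all genes 2.12% were then called higher and 60.6% lower, and the median was -0.02 beside -1.25 over all genes.

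The authors' deposited table compares 3 of the control with 3 of the overexpression libraries, leaving out control 2 and overexpression 1, and shares its libraries with the comparison above. The authors' deposited table holds 26 of the 32 genes, with 17 higher and 0 lower at an adjusted p under 0.05, beside 14.2% of its 7998 genes higher and 12.2% lower. In the authors' deposited table hspd1 (log2 fold change 0.65, adjusted p = 0.0166), tomm22 (0.92, 0.0466) and timm44 (1.48, 0.0353) are among those 17, and tomm34 is not called (-0.75, adjusted p = 0.128). The fit used here differed from these calls on the same 6 libraries too. There tomm34 was called lower (-1.01, adjusted p = 0.0204, edgeR), and hspd1 (0.39, 0.108) and tomm22 (0.65, 0.131) did not pass. What sets these fits apart was not tested. The authors' deposited table marks 1280 genes as raised by a wider rule, which its values match in every case: a log2 fold change over 1 with an unadjusted p under 0.05. For genes raised in this sense, the authors' deposited table lists the ontology term protein import into the mitochondrial matrix, with 8 genes (7.71-fold enriched, adjusted p = 0.00445), of which 6 are among the 32: tomm20b, timm23a, tomm70a, tomm7, timm44 and timm50. The authors' deposited table gives the outer membrane translocase complex with 4 genes (11-fold, adjusted p = 0.0562) and the MICOS complex with 4 (7.72-fold, adjusted p = 0.126). The authors' deposited table also gives cristae formation with 5 (6.88-fold, adjusted p = 0.171) and protein import into the mitochondrial inner membrane with 3 (7.22-fold, adjusted p = 0.911). Of these terms only import into the matrix has an adjusted p under 0.05.

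Genes too sparse to test and not yet described were tomm40l, a second pore gene, with 4 counts in controls and 15 with overexpression, and timmdc1, with 10.01 and 20.01. With no filter neither passed in edgeR (log2 fold change 0.81, adjusted p = 0.557, and -0.02, adjusted p = 0.993). A further 2 genes, written in capitals in the table, fall outside the symbols chosen. TIMM21 held 2 counts over the controls and 18 over the overexpression libraries, and TIMM22 held 0.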

How the data were processed

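The authors deposited estimated counts per gene for 8 libraries, corrected numbers of unique molecular identifiers as read from the values. Per the submitters' processing notes, the build was danRer11 and edgeR was used. No aligner, counter, annotation or strand setting was named, and these were not given in the sources used here. Per the file headers, the authors' deposited comparison holds log2 fold changes and p-values, and the deposited term table fold enrichment and Benjamini p-values. The comparison's count columns equal those of 6 libraries in 100% of values (tolerance 1e-06).

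Counts were rounded and fitted over all genes in R 4.3.3 with edgeR 4.0.16: filterByExpr (minimum count 10), TMM, robust quasi-likelihood test, Benjamini-Hochberg adjustment, threshold 0.05. The 67 spike-in entries were left out. The SE comes from the fold change and the F statistic. The fit was tested on simulated data. Alternatives included DESeq2 1.42.0, and contractile genes for scaling came from an earlier analysis of these data.

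Genes, lists and tests were chosen with earlier results of these data known. Every tested gene is named. Levels per library are given for up to 3 genes per role with the highest mean, for genes that fell or overlapped, and for the 4 most abundant partners. Those of tomm7 were added after its values were seen. Sequences are not shown.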

Additional observations from a re-analysis of the deposited data

Results flagged for a closer look

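Within a group of 4 libraries, 4 values lay apart from the other 3 by most of the group's range, out of 50 groups checked, where chance marks about 1 in 20. In control 2, tomm20b was at 228 CPM, against 126 to 139 CPM in the other controls. In the same library the 32 genes made up 0.493% of counts outside the mitochondrial genome, and the ratio of hspe1 to hspd1 was 2.42. Control 2 has the fewest counts, and its tomm20b level rests on 8.01 counts. In overexpression 2 the ratio of chchd10 to chchd2 was 0.966, against 1.14 to 1.18 in the other overexpression libraries.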

How the results depend on the processing

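Scaling was the choice that moved the results most. Scaled on contractile genes, 0 import and cristae genes were higher and 4 lower (median -0.23), and 0 partner genes were higher and 3 lower (median -0.0202). Of all genes 2.12% were then higher and 60.6% lower. This scaling moved all genes alike, with the median over all genes going from 0.01 to -1.25. Turning from above to below 0 were tomm20a (-0.31), immt (-0.23), chchd2 (-1.13), tomm70a (-0.33), hspd1 (-0.88), hspe1 (-0.38), tomm20b (-0.15), tomm22 (-0.68), timm23a (-0.0202) and samm50l (-0.42). So did letm1 (-0.55), hspa9 (-1.16), pmpcb (-0.64), opa1 (-0.14), clpxa (-0.62) and hmga1a (-0.82). Below 0 under both scalings were tomm34 (-2.45), tomm40 (-1.35), grpel2 (-1.57) and yme1l1b (-1.42). With library totals alone the median was 1.42, and tomm40 (0.33), yme1l1b (0.25) and grpel2 (0.0803) turned positive. With no filter the 27 genes with counts gave 14 higher and 0 lower (median 1.30), beside 6.91% and 7.66% of all genes. There tomm40 was at 0.16 and yme1l1b at 0.12. With a minimum count of 20, 15 genes were tested, 9 higher and 0 lower (median 0.75), beside 32.1% and 35.7% of all genes. In that setting 5 partner genes were higher and 1, grpel2, lower, with chchd2 at -0.16 and hspa9 at -0.19. With a filter on the mean over all libraries 24 genes were tested, 17 higher and 1 lower, beside 23.4% and 20.3% of all genes. The median was then 1.28, with tomm40 at 0.14 and yme1l1b at 0.11. Without any single library 11 to 15 genes were higher and 1 was lower, beside 23.6% to 30.4% and 25.1% to 30.2% of all genes. Medians were then 0.85 to 1.17, with tomm40 from -0.50 to 0.59 and yme1l1b from -0.52 to 0.59. The lowest count, 11, was without control 1.

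Size factors in place of TMM gave 14 higher and 1 lower, beside 30.8% and 28.9% of all genes. DESeq2, scaling over genes outside the mitochondrial genome and the 6 libraries of the authors' comparison each gave 13 and 1, the lost call being that of samm50l in each. Of all genes 27.8% to 29.3% were higher and 26.2% to 30.4% lower in these settings. Deviations of same-numbered libraries correlated at -0.0597 to 0.0142, so the numbers were not taken as pairs, and 0 of 4 controls correlated best with its own number. With the replicate block 13 genes were higher and 1 lower, beside 27.9% and 26.2% of all genes, and yme1l1b was at 0.22. With a pseudocount of 1, and without any single library, 0 of the 4 pair ratios passed after adjustment. Sign flips over the 4 same-numbered pairs cannot give an exact p below 0.125, so they bear on none of them. Depth limits the genes under the filter, and levels in control 2 rest on few counts.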
